A study of Homo sapiens with 16 samples.

Results

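The transcripts of 9 genes of transforming growth factor beta (TGF-β) signaling were followed through every group of an RNA-seq study of LN229 cells, an established human glioblastoma (GBM) line. The genes were the ligands TGFB1, TGFB2 and TGFB3, the receptors TGFBR1 and TGFBR2, the signal carrier SMAD3 and the inhibitory SMAD7, and the responsive genes TGFBI and SKIL. They were chosen by name, and all 9 had values in both experiments, among 13475 genes measured in both. In the first experiment, LN229 cells were kept in regular culture (Regular) or in the ischemic condition (Ischemic), without an added compound. In the second experiment, cells of both cultures were given DMSO, VX745 or MK25 (Regular DMSO, Regular VX745, Regular MK25, Ischemic DMSO, Ischemic VX745, Ischemic MK25). The ischemic condition combines low oxygen with low glucose, glutamine and serum. VX745 inhibits the kinase p38α, MK25 inhibits MK2, a kinase that p38 activates, and DMSO is the solvent control. Each of the 8 groups had 2 libraries, so 16 libraries were compared, all from 1 cell line.

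TGF-β ligands are secreted in a latent form and must be released before they bind the type II receptor TGFBR2, which then recruits and phosphorylates the type I receptor TGFBR1. TGFBR1 phosphorylates SMAD2 and SMAD3, which enter the nucleus with SMAD4 and change transcription, and among the genes they induce are SMAD7 and SKIL, which damp the pathway in turn. GBM cells are known to secrete TGF-β, above all the TGFB1 and TGFB2 products, which act on invasion, on the extracellular matrix and on immune cells. Phosphorylation and ligand release are not seen by RNA-seq, so the values below are levels of transcripts only.

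Between 20122017 and 37562668 reads per library lay on the listed genes. The 9 genes had from 90 reads (TGFB3 in Ischemic replicate 2) to 28683 reads, all above a floor of detection of 3 reads. Of 8 glioma markers, VIM, CD44 and NES were high, with mean log2 CPM of 12.06, 9.67 and 9.13 in the first experiment. CPM is a read count scaled to library size. EGFR (6.45), S100B (5.03) and SOX2 (4.92) followed, and OLIG2 (2.05) and GFAP (0.56) were the lowest of the 8. None of 7 markers of immune cells, endothelium, neurons, fibroblasts and oligodendrocytes had a value here.

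Compared per length of transcript, TGFBI was the most abundant of the 9 genes and TGFB2 and TGFB3 the least. TGFBI encodes a secreted matrix protein named for its induction by TGF-β, and its level in Regular cells was 219 ± 5.31 CPM per kilobase (SD, n = 2). TGFB1 and SMAD3 followed at 47.4 ± 1.10 and 46.8 ± 4.21 CPM per kilobase, a gap smaller than their SD. TGFBR2 (14.3 ± 0.65), SMAD7 (7.0 ± 0.22), TGFBR1 (5.66 ± 0.14) and SKIL (4.51 ± 0.17) formed the middle of the order on this scale. TGFB3 (2.13 ± 0.090) and TGFB2 (1.93 ± 0.068) closed it. The most visible change of order in Ischemic cells was at the receptors, where TGFBR1 stood at 13.7 ± 0.67 and TGFBR2 at 8.12 ± 0.17 CPM per kilobase. In Regular cells TGFBR2 had been above TGFBR1, and in Ischemic cells it was below it.

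**Figure D1:**
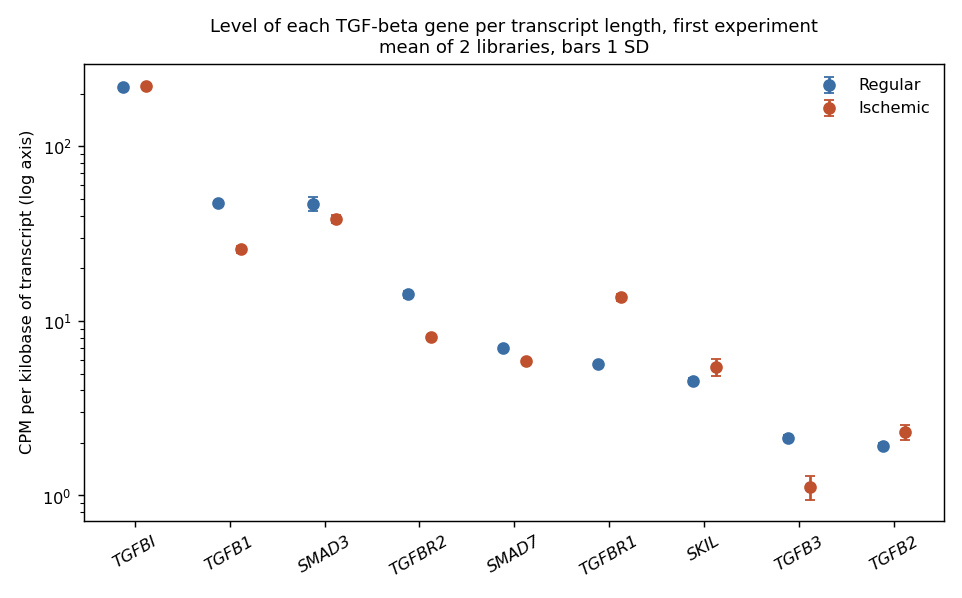
Mean level of the 9 genes per kilobase of transcript (log axis, CPM per kilobase, bars 1 SD, n = 2) in Regular and Ischemic libraries of the first experiment, ordered by the Regular level. TGFBI stands at 219 CPM per kilobase in Regular cells and TGFB2 at 1.93, and the order of TGFBR1 and TGFBR2 is exchanged between the cultures.

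The sequence before the start sites of the 3 ligand genes and SKIL is shown here to compare the ligands with one another and because SKIL held a motif found in no other member. The 250 bases before the start of the canonical transcript are given 5′ to 3′ from RefSeq (GRCh38.p14), with TATAAA and the cyclic AMP response element TGACGTCA in capitals.
TGFB1, chr19:41353923-41354172, - strand: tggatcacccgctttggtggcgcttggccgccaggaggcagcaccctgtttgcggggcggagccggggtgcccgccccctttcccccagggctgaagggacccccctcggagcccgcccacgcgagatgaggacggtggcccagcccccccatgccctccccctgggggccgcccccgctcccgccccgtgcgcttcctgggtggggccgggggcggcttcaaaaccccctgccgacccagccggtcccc
TGFB2, chr1:218345086-218345335, + strand: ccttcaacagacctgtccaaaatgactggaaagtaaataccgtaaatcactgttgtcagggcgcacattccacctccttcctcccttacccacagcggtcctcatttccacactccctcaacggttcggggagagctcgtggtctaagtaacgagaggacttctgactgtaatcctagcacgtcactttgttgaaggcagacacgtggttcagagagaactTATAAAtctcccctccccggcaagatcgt
TGFB3, chr14:75981996-75982245, - strand: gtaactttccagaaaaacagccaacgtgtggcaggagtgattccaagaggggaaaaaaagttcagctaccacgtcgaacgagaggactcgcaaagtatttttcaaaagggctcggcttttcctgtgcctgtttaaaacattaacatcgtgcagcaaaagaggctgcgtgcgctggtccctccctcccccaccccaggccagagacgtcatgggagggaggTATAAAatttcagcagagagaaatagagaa
SKIL, chr3:170357465-170357714, + strand: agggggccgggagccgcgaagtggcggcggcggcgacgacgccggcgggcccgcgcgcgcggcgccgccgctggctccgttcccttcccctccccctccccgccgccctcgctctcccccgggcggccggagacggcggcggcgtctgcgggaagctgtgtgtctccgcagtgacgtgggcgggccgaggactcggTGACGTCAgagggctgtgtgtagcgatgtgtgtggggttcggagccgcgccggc
The promoters of TGFB2 and TGFB3 held TATAAA, beginning 29 and 30 bases before the start, and the TGFB1 promoter did not. TATAAA was found on either strand in 10.8% of 34943 RefSeq promoter windows of the same 250 bases before a start. SKIL was the only member with TGACGTCA, 54 bases before its start, a sequence in 1.63% of windows. The letters ACGTG, the core of the hypoxia response element, were in the TGFB2 (3 matches), TGFB3 (2), SMAD3 (2) and SKIL (1) promoters and in 18.5% of windows, also read on both strands. CAGAC, the SMAD box, was in the TGFB2 (2), SMAD7 (2), TGFBR1 (1) and SKIL (1) promoters and in 38.0% of windows. The AP-1 site TGANTCA, found in 6.59% of windows, was in none of the 9 promoters within these 250 bases. In TGFB2 a CAGAC match shares a base with an ACGTG match, and 2 of the ACGTG matches of TGFB2 and both of SMAD3 are CACGTG read on each strand. A match describes letters and not binding. GC content ranged from 48.0% in SMAD7 to 80.8% in SMAD3, with 76.8% in TGFB1, 50.4% in TGFB2 and 49.2% in TGFB3.

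To examine how the ischemic condition changes these genes, Ischemic libraries were compared with Regular libraries, first without any compound. TGFBR1 rose, and TGFB1, TGFB3 and TGFBR2 fell, each by at least 1.5-fold. SMAD3 and SMAD7 fell and SKIL rose by less than 1.5-fold, while TGFB2 and TGFBI did not pass the test. A gene passed with an adjusted p under 0.05 over all genes (limma, Benjamini-Hochberg) and was called where its change was also at least 1.5-fold. Of the 9 genes 4 were called, against 41.4% of all genes, and 7 passed, against 70.4%. Their median log2 fold change was -0.25, beside -0.01 for all genes. In bulk RNA, fewer cells that express a gene and less transcript per cell cannot be told apart.

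Among the ligands, TGFB1 (Entrez 7040, chr19:41330323-41353922, minus strand), had log2 CPM of 7.02 and 7.07 in Regular libraries and 6.12 and 6.21 in Ischemic libraries. The Ischemic libraries lay far below both Regular libraries, a 1.84-fold fall (log2 fold change -0.88, SE 0.07, adjusted p = 2.91e-07 by limma). TGFB3 (Entrez 7043, chr14:75958097-75983011, minus strand) had 2.84 and 2.93 log2 CPM in Regular and 1.80 and 2.12 in Ischemic libraries. It fell by 0.93 (SE 0.16, adjusted p = 2.66e-04 by limma), and its Ischemic replicates were further apart than those of TGFB1. TGFB2 (Entrez 7042, chr1:218345336-218444619, plus strand) had 3.54 and 3.47 log2 CPM in Regular and 3.86 and 3.66 in Ischemic libraries. Both Ischemic libraries were above both Regular ones, but the difference of 0.25 (95% interval -0.01 to 0.51) had an adjusted p of 0.0741 by limma. In this comparison 85.2% of all genes had both libraries of 1 culture beyond both of the other. Other genes overlap these loci on the opposite strand, among them TGFB2-AS1 at TGFB2 and IFT43 at TGFB3, and the library kit does not mark the strand, so their reads cannot be told apart from those of the ligands.

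The 2 receptor genes moved in opposite directions. TGFBR1 (Entrez 7046, chr9:99103647-99154192, plus strand), which encodes the type I kinase, had 5.23 and 5.18 log2 CPM in Regular and 6.52 and 6.42 in Ischemic libraries. This was the largest change among the 9 genes, a 2.42-fold rise (1.27, SE 0.08, adjusted p = 2.1e-08 by limma). TGFBR2 (Entrez 7048, chr3:30606356-30694142, plus strand), which encodes the ligand-binding type II receptor, had 5.97 and 6.06 in Regular and 5.22 and 5.18 log2 CPM in Ischemic libraries. It fell 1.75-fold (-0.81, SE 0.08, adjusted p = 1.37e-06 by limma). Neither receptor showed any overlap between the cultures, which was also so for 85.2% of all genes.

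Changes of the downstream genes were smaller. SMAD3 (Entrez 4088, chr15:67065602-67195169, plus strand), the transcription factor that the receptor activates, had 8.15 and 8.33 log2 CPM in Regular and 7.90 and 8.01 in Ischemic libraries, a fall of 0.28 (SE 0.08, adjusted p = 0.00599 by limma). SMAD7 (Entrez 4092, chr18:48919853-48950965, minus strand), which blocks the type I receptor, fell by 0.25 (SE 0.09, adjusted p = 0.0301). SKIL (Entrez 6498, chr3:170357715-170396849, plus strand), which encodes the SMAD corepressor SnoN, rose by 0.27 (SE 0.09, adjusted p = 0.0227). TGFBI (Entrez 7045, chr5:136028988-136063818, plus strand) had 9.19 and 9.24 log2 CPM in Regular and 9.20 and 9.25 in Ischemic libraries. Its cultures overlapped, and its log2 fold change was 0.01 with a 95% interval of -0.14 to 0.15. After quantile normalization TGFBI passed as lower (-0.24, adjusted p = 0.00366 by limma).

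The calls of TGFB1, TGFB3, TGFBR1 and TGFBR2 held without any 1 library, but the 3 smaller changes each rested on single libraries. SMAD3 no longer passed without Regular replicate 2 (-0.19), SMAD7 without Regular replicate 1 (-0.28), Regular replicate 2 (-0.22) or Ischemic replicate 2 (-0.22), and SKIL without Regular replicate 1 (0.31), Regular replicate 2 (0.23) or Ischemic replicate 1 (0.15). TGFB2 passed without Ischemic replicate 2 (0.35, adjusted p = 0.0156 by limma). The labels do not say whether the replicates of a group came from separate cultures, so p-values measure the spread between these libraries, which may be technical.

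**Figure D2:**
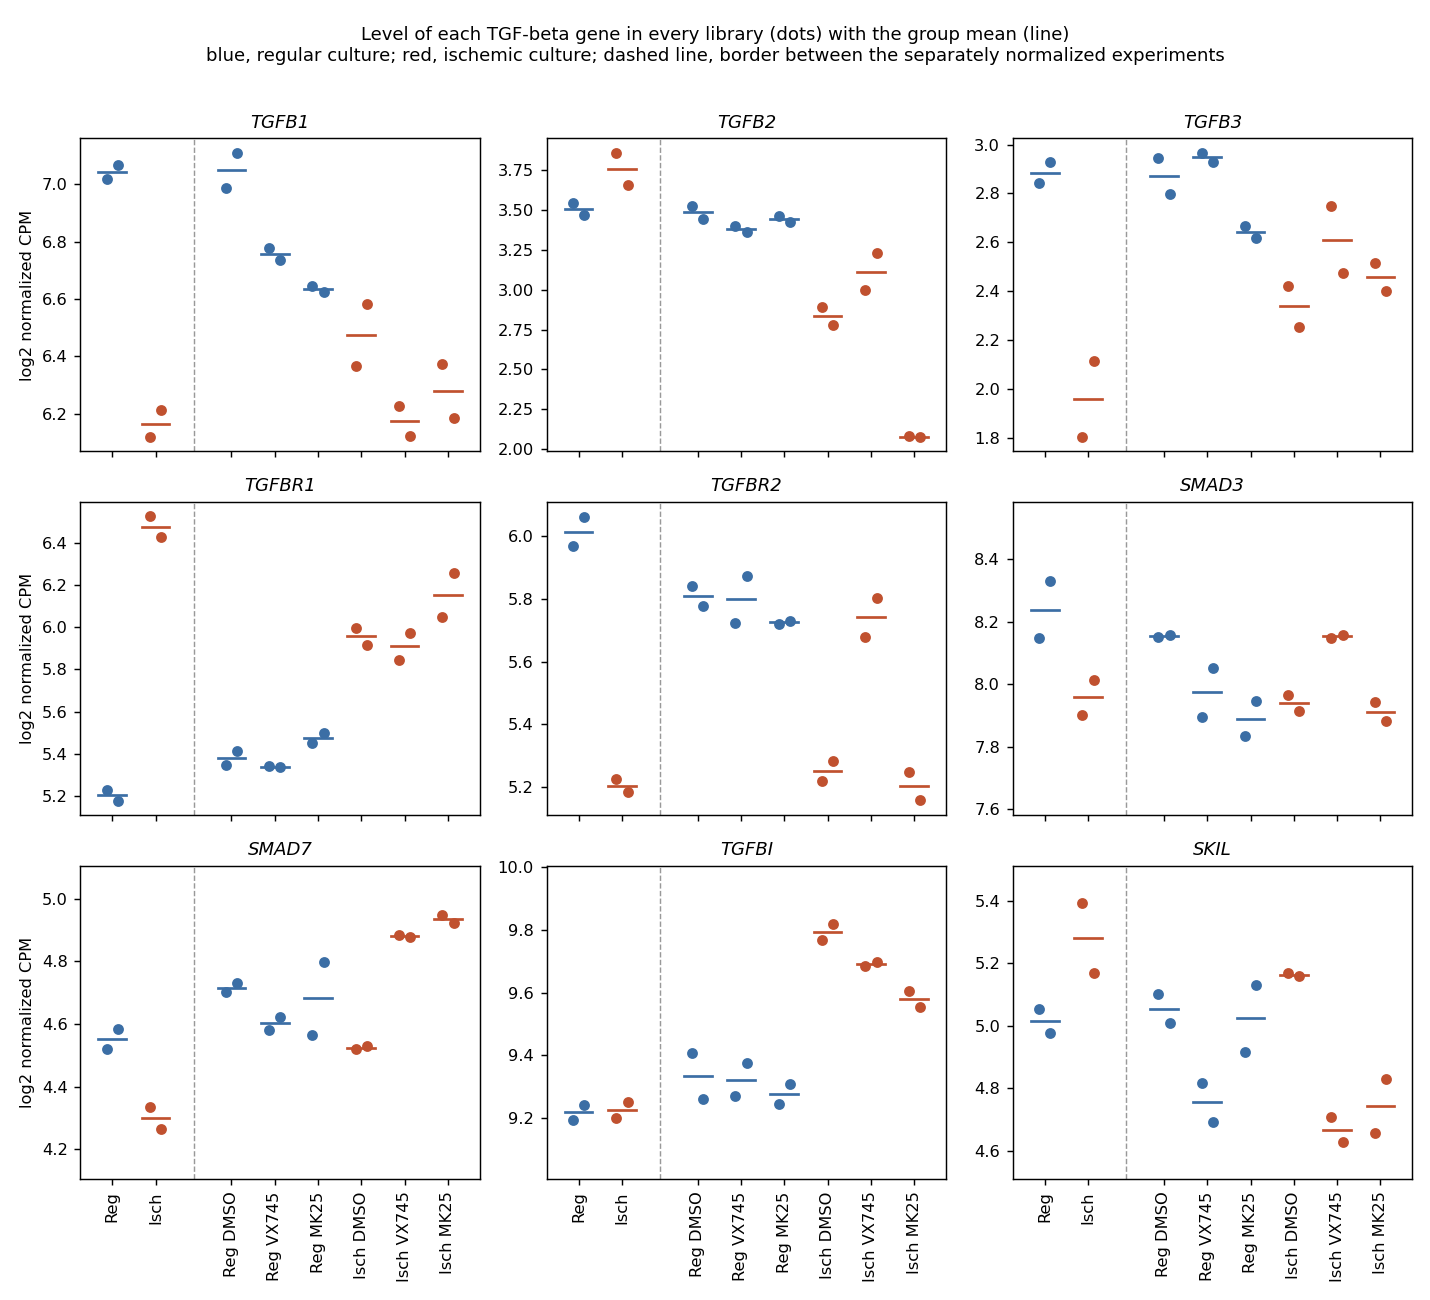
Level of each of the 9 genes (log2 normalized CPM) in all 16 libraries, shown as dots with a line at the group mean, in regular (blue) and ischemic (red) culture; the dashed line divides the separately normalized experiments, so levels are compared only on one side of it. TGFB2 in Ischemic MK25 (2.08 and 2.07) and SMAD7 in Ischemic DMSO (4.52 and 4.53) stand below the other groups of the second experiment.

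In the second experiment the cultures were compared again with DMSO in both. TGFB1, TGFB3 and TGFBR2 fell and TGFBR1 rose again, by smaller amounts, TGFB2 fell by more than 1.5-fold, and TGFBI rose. Of the 9 genes 8 passed (6 lower, 2 higher), against 69.6% of all genes, and 1 was called, against 36.0%. The median log2 fold change was -0.21 for the 9 genes and -0.01 for all genes. Levels of the experiments were normalized apart, so the changes of each are set side by side and not tested against each other.

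TGFB2 went from 3.53 and 3.44 log2 CPM in Regular DMSO to 2.89 and 2.78 in Ischemic DMSO, with 361, 267, 181 and 200 reads in these libraries. It was lower in both ischemic libraries, 1.57-fold (-0.65, SE 0.11, adjusted p = 6.52e-05 by limma), where the first experiment had both ischemic libraries higher. TGFB1 had 6.99 and 7.11 log2 CPM in Regular DMSO and 6.37 and 6.58 in Ischemic DMSO, a 1.49-fold fall (-0.57, SE 0.08, adjusted p = 3.25e-06 by limma). TGFB3 had 2.95 and 2.80 in Regular DMSO and 2.42 and 2.25 log2 CPM in Ischemic DMSO, and its fall was 1.45-fold (-0.53, SE 0.13, adjusted p = 0.00168 by limma). All 3 ligand transcripts were therefore lower in both ischemic libraries with DMSO. The cultures were apart in this way, in either direction, for 83.3% of all genes.

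TGFBR1 had 5.35 and 5.41 log2 CPM in Regular DMSO and 6.0 and 5.92 in Ischemic DMSO. It rose 1.49-fold (0.58, SE 0.07, adjusted p = 1.75e-06 by limma), less than in the untreated cells. TGFBR2 had 5.84 and 5.78 log2 CPM in Regular DMSO and 5.22 and 5.28 in Ischemic DMSO, a 1.47-fold fall (-0.56, SE 0.07, adjusted p = 1.54e-06 by limma). The receptors thus kept the opposite directions of the first experiment.

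TGFBI had 9.41 and 9.26 log2 CPM in Regular DMSO and 9.77 and 9.82 in Ischemic DMSO. Both ischemic libraries were higher, by 1.37-fold (0.46, SE 0.06, adjusted p = 2.91e-06 by limma), and the change did not pass after quantile normalization (0.09). SMAD3 fell by 0.21 (SE 0.06, adjusted p = 0.00396 by limma) and SMAD7 by 0.19 (SE 0.08, adjusted p = 0.0386). SKIL differed by 0.11, with a 95% interval of -0.07 to 0.29, and did not pass. SMAD7 no longer passed without any 1 of the 4 libraries (between -0.21 and -0.18), and the number of genes called was 2 to 4 in place of 1 without any 1 of them. TGFB1, TGFBR1 and TGFBR2 lay just under 1.5-fold.

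**Figure D3:**
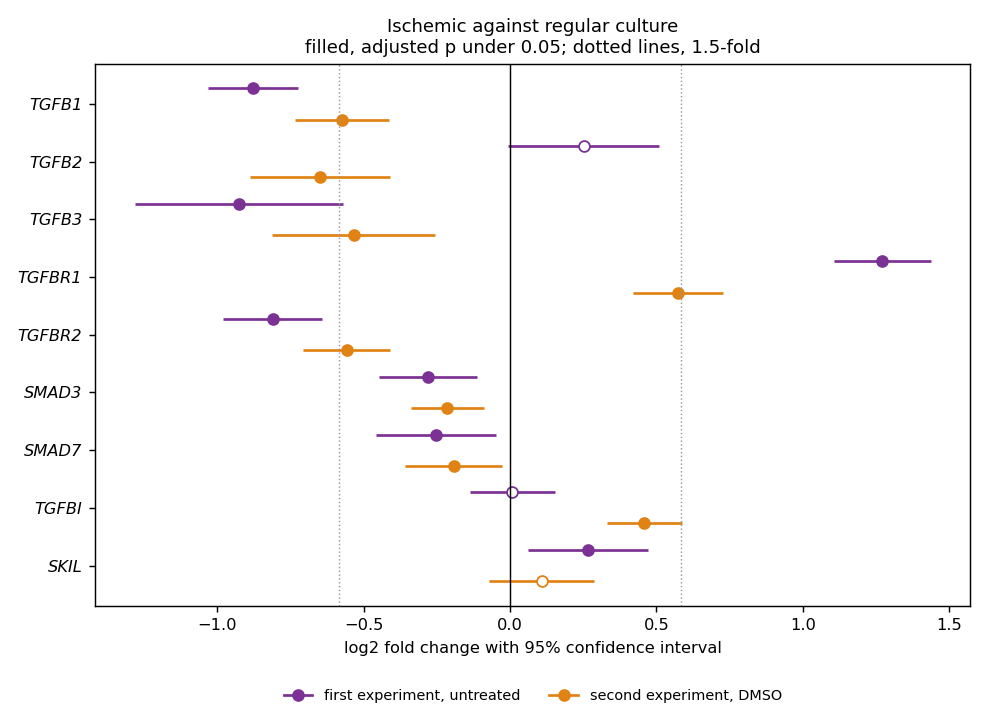
Log2 fold change of ischemic against regular culture for the 9 genes with its 95% confidence interval, in untreated cells of the first experiment and DMSO-treated cells of the second; filled points had an adjusted p under 0.05, and dotted lines mark 1.5-fold. TGFB2 lies at 0.25 and -0.65 and TGFBR1 at 1.27 and 0.58.

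To ask what inhibition of p38α does in ischemic cells, Ischemic VX745 was compared with Ischemic DMSO. TGFBR2, SMAD7 and SMAD3 rose, and SKIL and TGFB1 fell. All changes were under 1.5-fold. Of the 9 genes 5 passed, against 28.9% of all genes, and 0 were called, against 5.26%. The unadjusted p was under 0.05 for 6 of the 9. The share of all genes with such a p was not computed and is at least the 28.9% that passed. The median log2 fold change was 0.21 for the 9 genes and 0.003 for all genes.

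TGFBR2 showed the clearest rise, from 5.22 and 5.28 log2 CPM in Ischemic DMSO to 5.68 and 5.80 in Ischemic VX745. The groups were apart, 1.40-fold (0.49, SE 0.07, adjusted p = 8.17e-05 by limma), and the Ischemic VX745 libraries overlapped those of Regular VX745 (5.72 and 5.87). Ischemic VX745 and Ischemic DMSO were apart in 70.1% of all genes. SKIL went the other way, from 5.17 and 5.16 log2 CPM to 4.71 and 4.63, a 1.41-fold fall (-0.50, SE 0.09, adjusted p = 4.54e-04 by limma). Both VX745 libraries were below every DMSO library of either culture.

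SMAD7 had 4.52 and 4.53 log2 CPM in Ischemic DMSO and 4.89 and 4.88 in Ischemic VX745. The replicates of each group were close together, and the rise was 1.28-fold (0.36, SE 0.08, adjusted p = 0.00282 by limma). SMAD3 had 7.97 and 7.92 log2 CPM with DMSO and 8.15 and 8.16 with VX745, a rise of 0.21 (SE 0.06, adjusted p = 0.0128 by limma). TGFB1 had 6.37 and 6.58 with DMSO and 6.23 and 6.12 log2 CPM with VX745, a fall of 0.30 (SE 0.08, adjusted p = 0.00722 by limma). The TGFB1 change no longer passed without Ischemic DMSO replicate 2 (-0.19) or Ischemic VX745 replicate 2 (-0.25), nor that of SMAD3 without Ischemic DMSO replicate 2 (0.19), Ischemic VX745 replicate 1 (0.22) or replicate 2 (0.21). TGFB2 (0.28, 95% interval 0.04 to 0.51), TGFB3 (0.27, -0.01 to 0.55), TGFBR1 (-0.05, -0.20 to 0.11) and TGFBI (-0.10, -0.23 to 0.03) did not pass.

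Inhibition of MK2 was examined in the same way, with Ischemic MK25 against Ischemic DMSO. TGFB2 fell most, followed by SKIL, TGFBI and TGFB1, while SMAD7 and TGFBR1 rose. Of the 9 genes 6 passed, against 41.7% of all genes, and TGFB2 alone was called, against 9.67%. The median log2 fold change was -0.05 for the 9 genes and -0.001 for all genes.

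TGFB2 went from 2.89 and 2.78 log2 CPM in Ischemic DMSO to 2.08 and 2.07 in Ischemic MK25, on 153 and 146 reads in the MK25 libraries. These were the lowest TGFB2 values of the second experiment, 1.70-fold below DMSO (-0.76, SE 0.11, adjusted p = 5.1e-05 by limma), and the call held without any 1 library. SMAD7 rose to 4.95 and 4.92 log2 CPM, its highest values, 1.33-fold above DMSO (0.41, SE 0.08, adjusted p = 5.34e-04 by limma). SKIL fell to 4.66 and 4.83 log2 CPM (-0.42, SE 0.09, adjusted p = 8.67e-04 by limma). SMAD7 was thus higher and SKIL lower with either inhibitor, each set against the same DMSO libraries.

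TGFBI fell from 9.77 and 9.82 log2 CPM with DMSO to 9.60 and 9.55 with MK25 (-0.21, SE 0.06, adjusted p = 0.00938 by limma), a direction that quantile normalization turned (0.03). TGFBR1 had 6.05 and 6.26 log2 CPM with MK25 and rose by 0.20 (SE 0.07, adjusted p = 0.0393 by limma). TGFB1 had 6.37 and 6.19 log2 CPM with MK25, which overlapped the DMSO libraries, and its fall of 0.19 (SE 0.08) passed narrowly (adjusted p = 0.0496 by limma). TGFB1 no longer passed without Ischemic DMSO replicate 2 (-0.09) or Ischemic MK25 replicate 2 (-0.10), TGFBI without Ischemic DMSO replicate 2 (-0.19) or Ischemic MK25 replicate 2 (-0.19), and TGFBR1 without Ischemic DMSO replicate 1 (0.24), Ischemic DMSO replicate 2 (0.16) or Ischemic MK25 replicate 2 (0.09). With the replicate numbers as a block, the adjusted p of TGFB1 was 0.0544. TGFB3 (0.12, 95% interval -0.16 to 0.40), TGFBR2 (-0.05, -0.20 to 0.10) and SMAD3 (-0.03, -0.15 to 0.10) did not pass.

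The 2 inhibitors were then compared directly in ischemic cells, since both were set against the same DMSO libraries. TGFB2 was 2.05-fold lower with MK25 than with VX745 (-1.04, SE 0.11, adjusted p = 3.88e-06 by limma), from 3.0 and 3.23 to 2.08 and 2.07 log2 CPM. TGFBR2 was 1.45-fold lower (-0.54, SE 0.07, adjusted p = 2.71e-05), with 5.25 and 5.16 log2 CPM under MK25 against 5.68 and 5.80 under VX745. SMAD3 was lower by 0.24 and TGFBR1 higher by 0.24 with MK25. Of the 9 genes 4 passed, against 18.4% of all genes, and 1 was called, against 3.96%. TGFBR1 no longer passed without Ischemic VX745 replicate 1 (0.18) or Ischemic MK25 replicate 2 (0.14), nor SMAD3 without Ischemic VX745 replicate 1 (-0.25), Ischemic VX745 replicate 2 (-0.24) or Ischemic MK25 replicate 2 (-0.21), and TGFBR2 reached 1.5-fold without Ischemic VX745 replicate 1 (-0.60). SMAD7 (0.05, 95% interval -0.11 to 0.22) and SKIL (0.07, -0.11 to 0.26) did not pass.

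In regular culture fewer of these genes passed for either compound. With VX745, 0 of the 9 passed, against 0.335% of all genes, and 0 were called, against 0.0998%. By limma 3 of them had an unadjusted p under 0.05. The share of all genes with such a p was not computed, so this count cannot be called high or low. With limma's voom method on the recovered reads, 0 of the 9 passed as well. TGFB1 went from 6.99 and 7.11 log2 CPM in Regular DMSO to 6.78 and 6.74 in Regular VX745 (-0.29, SE 0.08, adjusted p = 0.109 by limma), and SKIL from 5.10 and 5.01 to 4.82 and 4.69 (-0.30, SE 0.09, adjusted p = 0.129). With MK25, 2 of the 9 passed, against 12.2% of all genes, and 0 were called, against 2.49%. TGFB1 fell to 6.65 and 6.62 log2 CPM (-0.41, SE 0.08, adjusted p = 0.00169 by limma), and this held without any 1 library. SMAD3 fell from 8.15 and 8.16 log2 CPM to 7.83 and 7.95 (-0.27, SE 0.06, adjusted p = 0.00723 by limma) and no longer passed without Regular MK25 replicate 1 (-0.21). TGFB2 in Regular MK25 (3.47 and 3.42) overlapped Regular DMSO, with a log2 fold change of -0.04 and a 95% interval of -0.28 to 0.20.

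**Figure D4:**
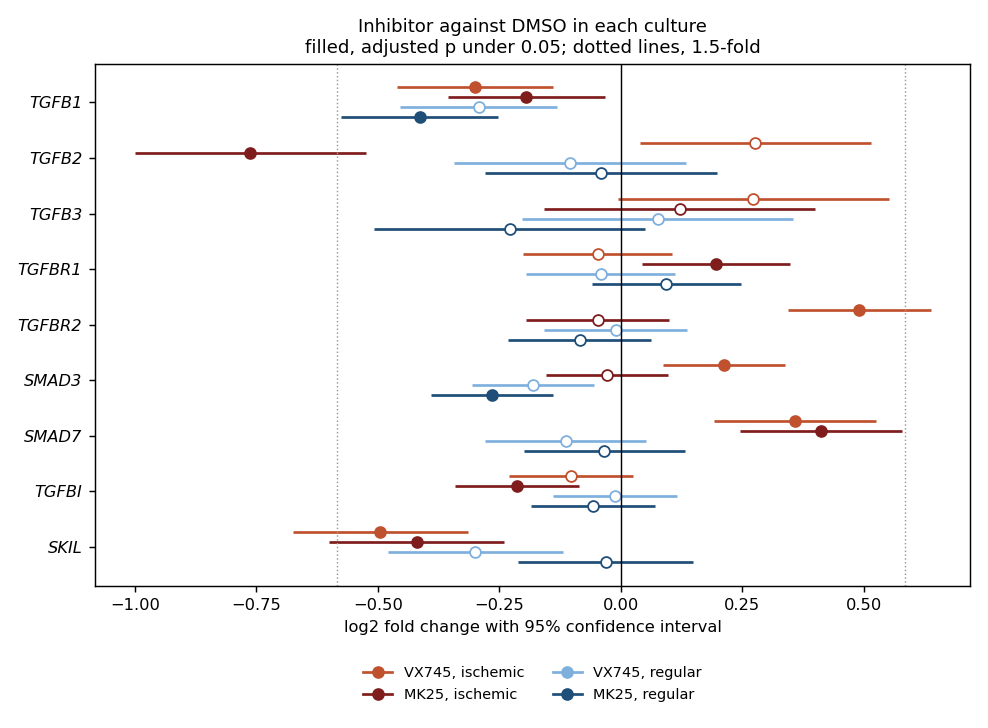
Log2 fold change of VX745 and MK25 against DMSO for the 9 genes with its 95% confidence interval, in ischemic (reds) and regular (blues) culture; filled points had an adjusted p under 0.05, and dotted lines mark 1.5-fold. TGFB2 with MK25 in ischemic culture (-0.76) is the single filled point beyond 1.5-fold.

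Whether an inhibitor acted differently in the cultures was tested as an interaction, where an adjusted p under 0.05 of any size counted. For VX745, TGFBR2 (0.50, SE 0.10, adjusted p = 0.00468 by limma), SMAD7 (0.47, SE 0.11, adjusted p = 0.0124) and SMAD3 (0.39, SE 0.08, adjusted p = 0.00726) responded more positively in ischemic than in regular culture, 3 of the 9 against 11.8% of all genes. For MK25, TGFB2 (-0.72, SE 0.16, adjusted p = 0.00347 by limma), SKIL (-0.39, SE 0.12, adjusted p = 0.0262), SMAD7 (0.44, SE 0.11, adjusted p = 0.00788) and SMAD3 (0.24, SE 0.08, adjusted p = 0.0489) passed, 4 of the 9 against 24.4%. The SMAD7 interaction with VX745 no longer passed without Ischemic VX745 replicate 1 (0.47). The SMAD3 interaction with MK25 no longer passed (0.18 to 0.27) without any 1 library other than Regular MK25 replicate 2. That of SKIL no longer passed without Regular DMSO replicate 2 (-0.34), Regular MK25 replicate 2 (-0.28), Ischemic DMSO replicate 1 (-0.38), Ischemic DMSO replicate 2 (-0.39) or Ischemic MK25 replicate 1 (-0.30). TGFB1 passed for MK25 without Ischemic DMSO replicate 2 (0.33). Without limma's variance trend the SMAD3 interaction passed for neither compound (adjusted p = 0.0585 with VX745 and 0.119 with MK25), nor did that of SKIL with MK25 (0.0717).

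Across the 6 groups of the second experiment, each gene had its own order of levels. TGFB1 was highest in Regular DMSO (mean log2 CPM 7.05), then Regular VX745 (6.76), Regular MK25 (6.64), Ischemic DMSO (6.47), Ischemic MK25 (6.28) and Ischemic VX745 (6.17), and the last 3 overlapped their neighbours. TGFBR1 put the 3 ischemic groups (5.91 to 6.15) above the 3 regular ones (5.34 to 5.47). SMAD7 had Ischemic DMSO (4.52) at the bottom and Ischemic MK25 (4.94) and Ischemic VX745 (4.88) at the top, with the 3 regular groups between. SKIL had the same ischemic groups at the opposite ends, with Ischemic DMSO highest (5.16) and Ischemic MK25 (4.74) and Ischemic VX745 (4.67) lowest by mean, but Regular VX745 (4.76) overlapped Ischemic MK25, which overlapped Ischemic VX745.

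Other genes of the pathway were read from 6 lists, of which 85 genes were named and 75 had values in the first experiment. Latent TGF-β is stored and released by the LTBP proteins, integrins and thrombospondin 1. With DMSO, 9 of 13 measured genes of latency and activation were higher in ischemic culture and 2 lower, 11 of 13 beside 69.6% of all genes that passed (median log2 fold change 0.46 beside -0.01), led by LTBP1 (1.18, SE 0.10) and, among those that fell, THBS1 (-1.21, SE 0.08). ITGB8, whose αvβ8 integrin activates TGF-β in glioma, fell in ischemic cells with VX745 (-0.75, SE 0.07) and with MK25 (-0.94, SE 0.07). Its log2 CPM was 8.49 and 8.32 with DMSO, 7.67 and 7.64 with VX745, and 7.37 and 7.55 with MK25. With MK25, 7 of the 13 fell and 1 rose, beside 41.7% of all genes that passed (median -0.22).

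Among co-receptors and other receptors, BAMBI, a decoy receptor, fell with ischemia by 1.84 in untreated and 1.37 in DMSO-treated cells. TGFBR3, the co-receptor betaglycan, fell by 2.05 and 2.08, a larger change at a low level, and is named here after its values were seen. Of 9 measured genes of this list, 3 rose and 3 fell in untreated cells, and 4 rose and 5 fell with DMSO. Over all genes 70.4% and 69.6% passed in these comparisons, split nearly evenly between higher (4772 and 4825) and lower (4768 and 4934), and the counts of this list and the next 2 are read against these shares. Of the SMADs and their partners, 4 rose and 3 fell of 9 in untreated cells and 5 rose and 4 fell with DMSO, with SMAD5 lower in both experiments (-0.64 and -0.69). Of 11 feedback and turnover genes, 6 rose and 1 fell in untreated cells, and 5 rose and 4 fell with DMSO. In this list SKI, a corepressor like SKIL, rose with MK25 in ischemic cells (0.74, SE 0.06) while SKIL fell. The SKI mean was also higher with VX745 (6.74 log2 CPM) than in Ischemic DMSO (6.22), and SKIL was lower there too. With ischemia the SKI mean went from 6.53 to 6.76 in untreated cells and from 6.62 to 6.22 with DMSO. SMURF2, a ubiquitin ligase of the receptors, fell with MK25 in ischemic cells (-0.61, SE 0.06).

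In untreated cells 13 of 26 measured targets rose and 10 fell, beside 70.4% of all genes that passed, and with DMSO the counts were again 13 and 10, beside 69.6% (median 0.10 and 0.18). CCN1, a matrix-associated protein, rose by 1.47 (SE 0.10) and 1.9 (SE 0.09) in the 2 experiments. SNAI1, a regulator of epithelial-mesenchymal transition, fell by 2.20 (SE 0.10) and 1.77 (SE 0.10). ID3 in untreated cells (-2.69, SE 0.12) and ID1 with DMSO (-2.16, SE 0.09), which respond to BMP signals as well, were the leading genes that fell.

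Of the 26 targets, 6 rose and 10 fell when VX745 was given to ischemic cells, and 6 rose and 12 fell with MK25, beside 28.9% and 41.7% of all genes that passed. IL11, an interleukin induced by TGF-β, went from 6.57 and 6.66 log2 CPM with DMSO to 5.72 and 5.81 with VX745 and 5.42 and 5.45 with MK25. It fell with both (-0.85, SE 0.06, and -1.18, SE 0.06), and its interaction with culture passed for both (-0.55 and -0.89). PTHLH, which encodes parathyroid hormone-related protein, fell with MK25 by 1.88 (SE 0.09), from 5.43 and 5.39 to 3.50 and 3.55 log2 CPM. CCN2, a matrix-associated growth factor, rose with VX745 (0.82, SE 0.08) and was lower with MK25 than with VX745 (-1.09, SE 0.08), and ID3 was higher with MK25 than with VX745 (1.25, SE 0.08).

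**Figure D5:**
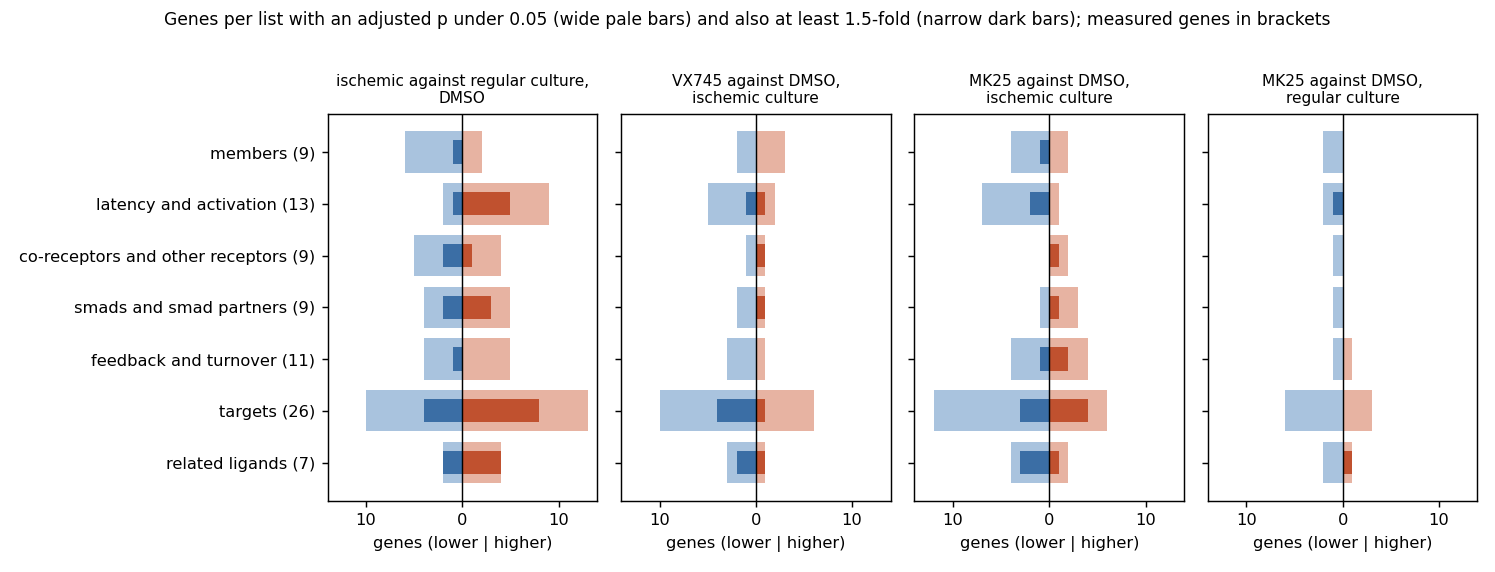
Number of genes lower (left of 0) and higher (right of 0) in each list, for 4 comparisons of the second experiment, at an adjusted p under 0.05 (wide pale bars) and also at least 1.5-fold (narrow dark bars). Of 13 measured genes of latency and activation, 9 were higher and 2 lower in ischemic culture, and 1 higher and 7 lower with MK25 in ischemic culture, where 69.6% and 41.7% of all genes passed.

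The genes whose pattern was most like each member were found by Pearson correlation over the 12 libraries of the second experiment, which share 6 groups, so r describes the group pattern and has no test. The 2 highest for the ligands were TBX2 (r = 0.978) and ZNF672 (r = 0.968) for TGFB1, MYEOV (r = 0.990) and CCND1 (r = 0.982) for TGFB2 and NREP (r = 0.935) and TNFRSF11A (r = 0.931) for TGFB3. Among the highest were, for the receptors, TPD52 (r = 0.992) and CCSAP (r = 0.989) for TGFBR1 and ARID5B (r = 0.971) for TGFBR2. Downstream these included PITPNM2 (r = 0.889) for SMAD3, FYCO1 (r = 0.927) and SH3PXD2B (r = 0.920) for SMAD7, MAP4K4 (r = 0.990) and SF3B2 (r = 0.986) for TGFBI and ZBTB38 (r = 0.957) and AHR (r = 0.902) for SKIL.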

How the data were processed

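RNA of LN229 cells was sequenced by the authors from 16 libraries (SMART-Seq mRNA HT and Nextera XT kits), 2 for each of 8 groups. According to the methods and submitters' notes, reads were trimmed and aligned to GRCh38 with HISAT2 in Galaxy. The counter and the annotation release are not given in the sources used here. The authors deposited log2 normalized CPM per gene and library, 1 table for each experiment (13559 and 14024 genes), which were used as deposited. A whole number of reads was recovered for every value. Among the lower counts, where this was checked, 100% lay within 0.1 reads of a whole number. The recovered reads on the listed genes numbered from 20122017 to 37562668 per library, which leaves out reads on genes not listed.

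Groups were compared with limma 3.58.1 in R 4.3.3 (1 mean per group, variance trend, two-sided p, Benjamini-Hochberg over all genes), on all 12 libraries of the second experiment and on the 4 of the first. The study's own count test was not run. Limma was applied to the log2 values as deposited, after being tested on simulated data. Alternatives were other scalings, filters, a replicate block, limma's voom on the recovered reads, and leaving out each library. Standard errors and 95% intervals are on the log2 scale. CPM per kilobase used the canonical transcript length of GENCODE 44, and gene positions came from RefSeq on GRCh38. The members and lists were chosen with earlier results of these data known. Pathway genes were named by a fixed rule, at most 2 in each direction of a list and comparison, the largest changes among called genes whose log2 values averaged 3 or more and whose groups did not overlap. For each member, the 2 genes most correlated with it were named. The floor of 3 reads covers counting error only, because no molecular identifiers were used and PCR copies count as reads. Some genes that this rule would name are not reported here.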

Additional observations from a re-analysis of the deposited data

Results flagged for a closer look

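The interaction test in limma, of whether the response to an inhibitor differed between the cultures, passed for 7 pairs of gene and compound. With VX745 the log2 difference between the responses was 0.50 for TGFBR2, 0.39 for SMAD3 and 0.47 for SMAD7. These were 3 of the 9 genes, against 11.8% of all genes. With MK25 the log2 difference was -0.72 for TGFB2, 0.24 for SMAD3, 0.44 for SMAD7 and -0.39 for SKIL. These were 4 of the 9 genes, against 24.4% of all genes. Without the variance trend SMAD3 passed for neither compound, nor did SKIL with MK25. SMAD3 and SKIL with MK25 and SMAD7 with VX745 also no longer passed without certain single libraries, as given above. SMAD7 and SMAD3 were found for both compounds, which share their DMSO libraries.

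The direction of the TGFB2 difference with ischemia was opposite in the 2 experiments, but only the fall with DMSO passed the test. In untreated cells the log2 fold change was 0.25 (adjusted p = 0.0741 by limma), with both Ischemic libraries above both Regular ones. With DMSO it was -0.65, with both Ischemic libraries below. Such a separation, in either direction, was found for 85.2% of all genes in untreated cells and 83.3% with DMSO. The difference between the experiments was not tested, since their tables were normalized apart, and the presence of DMSO and the experiment cannot be told apart.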

How the results depend on the processing

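Of 39 gene changes that passed the test, 22 passed under every alternative run. Across 1044 recomputed gene changes 940 kept direction and side of the threshold, 66 lost and 4 gained significance, and 34 reversed. Numbers of genes called were 1 and 7 (in place of 4) in untreated ischemia at 2-fold and with adjusted p alone, 0 and 8 (in place of 1) with DMSO, 0 and 6 (in place of 1) for MK25 in ischemic culture, and 5, 2 and 4 with adjusted p alone for VX745 in ischemic culture, MK25 in regular culture and MK25 against VX745. At 2-fold, 1529 genes were called higher and 1234 lower of all 13559 in untreated ischemia. Of all 14024 in the second experiment, 1267 and 1138 were called with DMSO, and 290 and 94 for MK25 in ischemic culture. With adjusted p alone the shares of all genes were 70.4% (untreated), 69.6% (DMSO) and 41.7% (MK25, ischemic). They were 28.9% (VX745, ischemic), 12.2% (MK25, regular) and 18.4% (MK25 against VX745). For ischemia with DMSO the number called was 2 after median centring or quantile normalization and 0 with 1 CPM added. The number that passed was 1 of 2 for MK25 in regular culture without the variance trend or with only the groups compared, and without the trend 2 of 4 for MK25 against VX745 and 2 of 4 for the MK25 interaction.

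Without 1 library the numbers that passed ranged from 4 to 7 (untreated ischemia), 3 to 5 (VX745, ischemic), 3 to 6 (MK25, ischemic), 1 to 2 (MK25, regular), 2 to 4 (MK25 against VX745) and 2 to 3 (each interaction). Without the variance trend 2 in place of 3 passed for the VX745 interaction. The numbers called ranged from 2 to 4 (ischemia, DMSO) and 1 to 2 (MK25 against VX745). The lone library left is then assumed to vary like the other groups.

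Of the reversals, TGFBI in untreated ischemia with quantile normalization (-0.24, adjusted p = 0.00366 by limma) passed as a fall where it had not passed before. The others with quantile normalization were TGFBI with VX745 in ischemic culture (0.090), TGFB3 with MK25 in ischemic culture (-0.067), SMAD3 with MK25 in ischemic culture (0.077), TGFBI with MK25 in ischemic culture (0.034), TGFBR2 with VX745 in regular culture (0.0092), TGFB1 in the VX745 interaction (0.035), TGFBR1 in the VX745 interaction (0.016), TGFBI in the VX745 interaction (0.15), TGFBI in the MK25 interaction (0.14), and with median centring TGFBI in untreated ischemia (-0.033). Without 1 library, changes with a reversal ranged as follows: TGFBI in untreated ischemia from -0.017 to 0.035, TGFBR1 with VX745 in ischemic culture from -0.11 to 0.016, SMAD3 with MK25 in ischemic culture from -0.060 to 0.0021, TGFBR2 with VX745 in regular culture from -0.085 to 0.065, TGFBI with VX745 in regular culture from -0.087 to 0.061, TGFB2 with MK25 in regular culture from -0.084 to 0.0015, SMAD7 with MK25 in regular culture from -0.15 to 0.084, TGFBI with MK25 in regular culture from -0.13 to 0.016, SKIL with MK25 in regular culture from -0.14 to 0.076, SKIL for MK25 against VX745 from -0.012 to 0.16, TGFB1 in the VX745 interaction from -0.12 to 0.10, TGFBR1 in the VX745 interaction from -0.068 to 0.058, TGFBR1 in the MK25 interaction from -0.0025 to 0.21, TGFBR2 in the MK25 interaction from -0.0089 to 0.081.

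With quantile normalization the split of all genes called higher and lower went from 610 and 127 to 322 and 192 for VX745 in ischemic culture, and from 985 and 371 to 629 and 486 for MK25. The cause of these shifts was not tested. Replicate numbers are shared by the labels, which do not say whether they pair the samples. The correlation of replicate differences was 0.19 in the first experiment and from -0.10 to 0.18 in the second. Such a correlation cannot settle whether samples were handled in pairs. With a replicate block TGFB1 with MK25 in ischemic culture no longer passed, so that 5 in place of 6 genes passed there. The numbers of genes called stayed the same. With the numbers crossed in that comparison, an alternative chosen after seeing the data, 6 passed and 1 was called.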

Other observations

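Among related ligands of the same superfamily, 7 of 11 had values, and 4 rose and 2 fell in ischemic culture in both experiments, where 70.4% and 69.6% of all genes passed. GDF15, a stress-induced cytokine, rose most (log2 fold change 6.14, SE 0.11, in untreated cells and 4.99, SE 0.09, with DMSO). INHBA, which encodes the activin A subunit and signals through SMAD2 and SMAD3, rose by 1.79 (SE 0.13) and 1.83 (SE 0.06), and GDF11, of the same receptor class, fell by 1.61 (SE 0.09) and 1.28 (SE 0.07).

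In ischemic cells INHBA fell with VX745 (-0.68, SE 0.06) and with MK25 (-0.93, SE 0.06), from 7.21 in both DMSO libraries to 6.57 and 6.48 and to 6.22 and 6.34 log2 CPM. In regular culture its changes were -0.02 and -0.04 and did not pass. BMP2, a bone morphogenetic protein that signals through SMAD1 and SMAD5, fell by 1.55 (SE 0.08) with MK25 in ischemic cells. GDF15 fell with VX745 in ischemic culture (-1.27, SE 0.09) and in regular culture (-0.60, SE 0.09), rose with MK25 in regular culture (0.69, SE 0.09) and was higher with MK25 than with VX745 (1.18, SE 0.09).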
